A study of Glycine max with 3 samples.

Results

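In the young soybean (Glycine max) seed, 210 of 66210 gene models were abundant in the embryo proper and at least 4 times lower in both the suspensor and the seed coat parenchyma. These members were chosen by their measured levels. Each had at least 100 reads for each 1000000 reads of its library (CPM, on the total of the deposited counts) in the embryo proper, and its CPM + 1 there was at least 4 times that in either other region. Glyma02g13210 met the same values but is not a member, so that 211 gene models passed and 210 are described. Because the 3 levels of each gene chose the members, their levels and folds are given as a description.

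The embryo proper is the upper part of the young embryo, the part that goes on to form the axis and cotyledons of the seedling. The suspensor is the stalk below it, which anchors and feeds the embryo and later degenerates. The seed coat, to which the parenchyma layer belongs, is tissue of the mother plant and not of the embryo.

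The 3 libraries were RNA-seq of tissue cut from paraffin sections by laser, from cultivar Asgrow A3237, with no treatment or transgene named in the labels. The embryo proper and suspensor libraries came from globular-stage embryos in pods 0.5 to 1.2 cm long, and the seed coat parenchyma library from early maturation seeds 6.0 to 7.0 mm long. Each region is represented by 1 library, so no value has a replicate and no p-value is given. The intervals below on levels, ratios and shares of reads cover counting error only and leave out variation between plants, dissections and amplifications. Those on shares of gene models take gene models as independent draws, and leave out this variation too. The seed coat library also differs from the embryo libraries in stage, section thickness and microdissection instrument, and these cannot be told apart from tissue. In such captured tissue, fewer cells of a type and less RNA per cell cannot be told apart either.

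The libraries held 11603055 (embryo proper), 8365831 (suspensor) and 11894273 (seed coat parenchyma) reads. A count of 0 allowed up to 0.259, 0.359 and 0.252 CPM in the same order, at 3 reads per library. The tables give identifiers without gene names, and the reference table at hand matched 0 of the 210 members. No function, sequence, gene length or coordinate is therefore attached to a member, and the labelled tissues could not be checked against marker genes. Without lengths, a rank by CPM is a rank by reads and not by transcripts.

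The members had a median of 183 CPM in the embryo proper, with 131 CPM at the lower and 336 CPM at the upper quartile. Their range ran from 100.1 CPM to 12289 CPM. Their median level was 21.3 CPM in the suspensor, against 18.3 CPM for the seed coat parenchyma. On the scale of CPM + 1 the median fold over the suspensor was 8.34 and that over the seed coat parenchyma was 9.85. The embryo proper library held 1715 gene models with at least 100 CPM, here called abundant, and over all of these the median folds were 2.02 and 2.38. Summed over the 3 regions, the embryo proper supplied a median of 81.8% of a member's CPM, from 68.4% at the lowest to 100% at the highest.

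**Figure D1:**
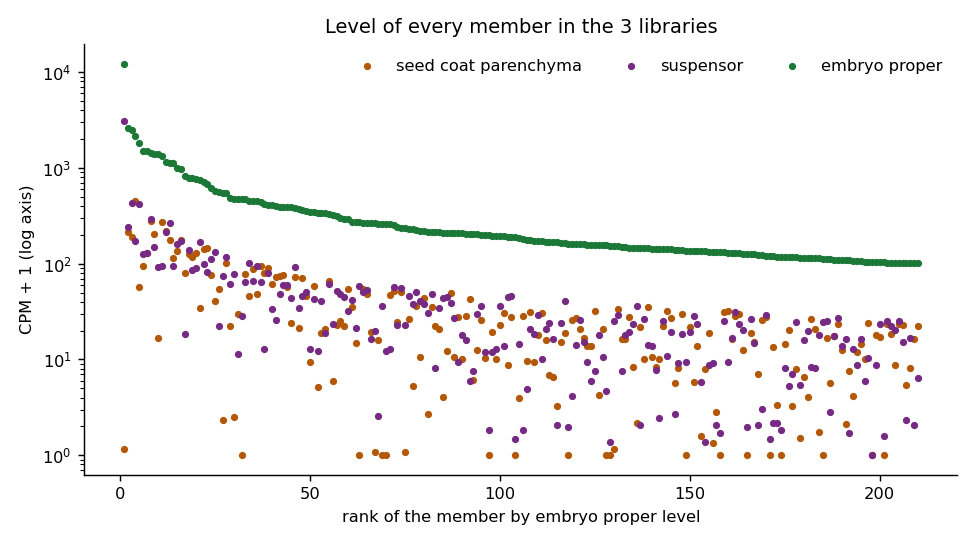
CPM + 1 (log axis) of each of the 210 members in the embryo proper, the suspensor and the seed coat parenchyma, against the member's rank by embryo proper level. Points at the bottom of the plot are members with 0 reads in that library, which applies to 17 members for the seed coat parenchyma and 1 for the suspensor.

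Together the members took 7.97% of the embryo proper's reads (95% Wilson interval 7.95 to 7.98%). They took 1.13% of the suspensor's reads (1.13 to 1.14%) and 0.746% of the seed coat parenchyma's (0.741 to 0.751%). A single member, Glyma19g42940, held 15.4% of the members' reads in the embryo proper and 27.0% of those in the suspensor. Without it the members' shares were 6.74% (embryo proper) and 0.827% (suspensor). The 10 most abundant members held 35.9% of all member reads in the embryo proper.

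The rule kept 12.3% of the 1715 abundant gene models, counting Glyma02g13210. Of the 1715, 412 (24.0%) were 4-fold or more above the suspensor and 459 (26.8%) were 4-fold or more above the seed coat parenchyma. The former include 201 that were not 4-fold above the seed coat, and the latter 248 that were not 4-fold above the suspensor. A further 1055 were 4-fold above neither. By abundance they made up 116 of 1008 gene models at 100 to 200 CPM (11.5%), 66 of 510 at 200 to 500 CPM (12.9%) and 14 of 134 at 500 to 1000 CPM (10.4%). At 1000 CPM or more they were 14 of 63 (22.2%), and 10 of these 14 stayed members under all 4 other scalings tried. The 63 include Glyma02g13210 and the 14 do not. The embryo proper level is part of the rule, so these shares are a description.

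**Figure D2:**
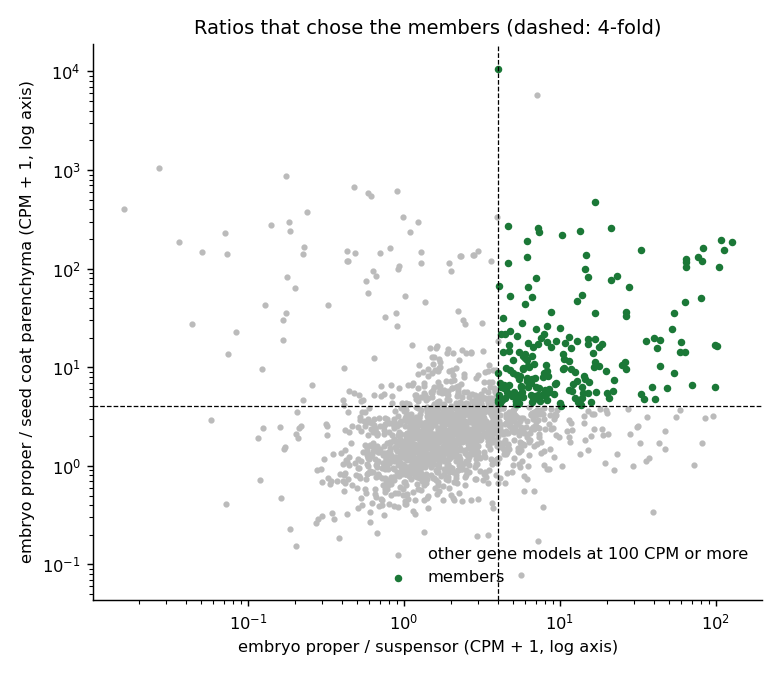
Fold of the embryo proper over the suspensor (x axis) and over the seed coat parenchyma (y axis), both on CPM + 1 and on log axes, for the 1715 abundant gene models. The 210 members fill the corner above both dashed 4-fold lines, and the grey point in that corner is Glyma02g13210.

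Glyma19g42940, on chromosome 19, was the most abundant member and the fifth most abundant gene model of the embryo proper library. Its levels were 12289 CPM (embryo proper), 3058 CPM (suspensor) and 0.168 CPM (seed coat parenchyma, 2 reads). The embryo proper level was 4.73 times that of the next member. Its ratio over the suspensor was 4.02 (counting interval 3.97 to 4.07), so that it lay on the edge of the 4-fold rule, whereas its ratio over the seed coat was 73086 (20232 to 603500). It was thus high in both embryo regions and close to absent in the maternal one. Glyma02g13210, which the rule leaves out, had the same order of levels, with 34692, 4869 and 5.04 CPM.

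The next 9 members by abundance ranged from 2596 to 1402 CPM in the embryo proper. Glyma15g40520, on chromosome 15, had 2596 CPM (embryo proper), 242 CPM (suspensor) and 212 CPM (seed coat). Glyma08g18460, on chromosome 8, stood at 2516, 432 and 191 CPM in the same order. On library totals, the first was about equally low in both other regions, with ratios of 10.7 and 12.3. The second was higher in the suspensor than in the seed coat by a ratio of 2.26 (2.14 to 2.38). TMM scaling multiplied suspensor levels by 1.20 and seed coat levels by 0.827, so ratios between these regions depended on scaling. Glyma08g14830, on chromosome 8, stood at 2159, 171 and 446 CPM, and its seed coat level was 2.61 times (2.46 to 2.77) its suspensor level. Glyma18g25820, on chromosome 18, stood at 1802, 419 and 55.9 CPM. It was the second of the 10 with a ratio over the suspensor close to 4, at 4.30 (4.15 to 4.46). Both it and Glyma19g42940 missed the 4-fold rule under each of the 4 other scalings tried.

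Glyma15g06160, on chromosome 15, had 1496 CPM (embryo proper), 126 CPM (suspensor) and 94.0 CPM (seed coat). Glyma08g45810, on chromosome 8, stood at 1492, 129 and 129 CPM. Both were more than 11-fold below their embryo proper level in either other region. On library totals, the second had levels in the other regions that did not differ beyond counting error (ratio 1.00, 0.929 to 1.09). With the TMM multipliers given above, its suspensor level would be the higher. Glyma08g13100, on chromosome 8, stood at 1429, 290 and 281 CPM, and Glyma04g41420, on chromosome 4, at 1412, 148 and 205 CPM. Glyma17g11630, on chromosome 17, stood at 1402, 91.2 and 15.9 CPM and had the largest ratio over the suspensor among the 10, 15.4 (14.3 to 16.5). Of the 10, 9 also reached 100 CPM in the suspensor library and 6 in that of the seed coat.

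The members with the largest folds over both regions were not the most abundant ones. Ranked by the smaller of the 2 folds on the CPM + 1 scale, the first 5 were Glyma20g24940, Glyma11g07710, Glyma16g24510, Glyma04g02210 and Glyma01g37590, and each had 0 reads in the seed coat parenchyma. Glyma20g24940, on chromosome 20, had 187 CPM in the embryo proper and 4 suspensor reads (0.478 CPM), a ratio of 391 (153 to 1438). Glyma11g07710, on chromosome 11, had 153 CPM and 3 suspensor reads, a ratio of 428 (146 to 2075). Both ratios rest on so few reads that their order is not determined.

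Glyma16g24510, on chromosome 16, had 196 CPM in the embryo proper and 7 suspensor reads, a ratio of 234 (114 to 584). Glyma01g37590, on chromosome 1, had 161 CPM and 8 suspensor reads, a ratio of 168 (85.1 to 390). Glyma04g02210, on chromosome 4, was the only member with 0 reads in both other libraries, against 1199 reads (103 CPM) in the embryo proper. Its embryo proper level was 288 times a suspensor level of 3 reads and 410 times a seed coat level of 3 reads. The lower ends of its counting intervals were 234-fold and 333-fold.

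**Figure D3:**
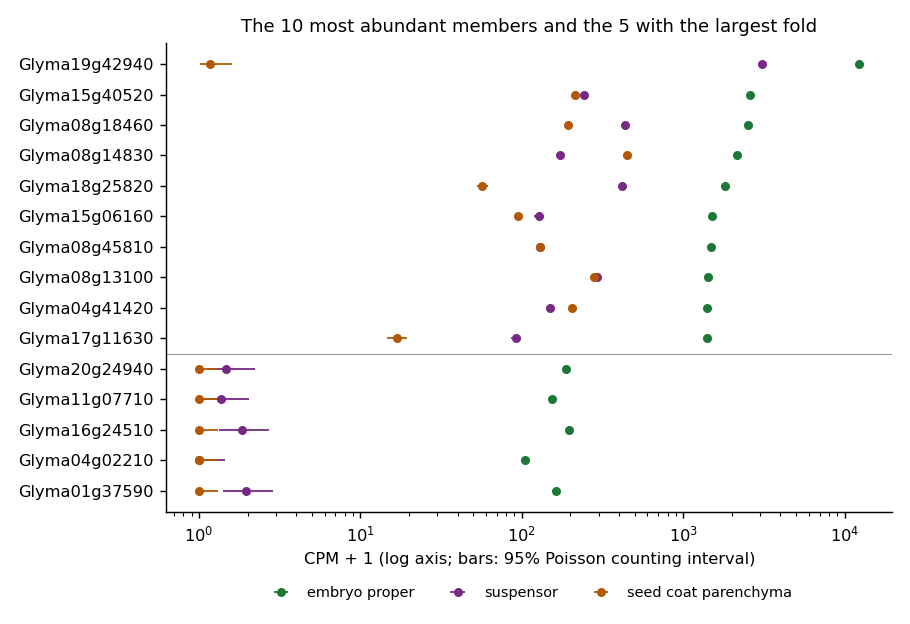
CPM + 1 (log axis) in the 3 libraries for the 10 most abundant members (above the line) and the 5 members with the largest fold over both other regions (below it), with 95% Poisson counting intervals. The upper group has 91.2 CPM or more in the suspensor, while the lower group lies between 103 and 196 CPM in the embryo proper and under 1 CPM elsewhere.

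Few members reached very large folds over both regions. A fold of 8 or more over both, on the CPM + 1 scale, was found for 75 members, of 16 or more for 32, of 32 or more for 14 and of 100 or more for 4. The fold over the higher of the other regions had a median of 6.27 and was under 5 for 56 members. Against the seed coat alone 23 members reached 100-fold, and against the suspensor alone 5 did. Abundant gene models outside the members are not counted here at that fold, so the difference between 23 and 5 may not be particular to the members. These counts depend on the added 1 CPM, which limits the fold of a gene model with no reads elsewhere to its CPM + 1.

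Under 1 CPM in both other libraries were 10 members. All 10 had 0 seed coat reads and between 0 and 8 suspensor reads, and their embryo proper levels ran from 102 to 196 CPM. Beside the 5 named above these were Glyma03g28140 (131 CPM, 6 suspensor reads), Glyma11g35080 (125 CPM, 8 reads), Glyma09g01000 (119 CPM, 4 reads), Glyma11g36490 (117 CPM, 7 reads) and Glyma02g05830 (102 CPM, 5 reads). No gene model above 200 CPM in the embryo proper was in this group.

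At the other end, 182 members had at least 1 CPM in each of the 3 regions, 152 had suspensor levels of 10 CPM or more and 138 had such seed coat levels. For most members the regions thus differed in amount and not in whether reads were found. The same counts over all 1715 abundant gene models are not given here, so this is not shown to be particular to the members. The gene models that the same rule gave for the suspensor took 1.61% of embryo proper reads, and those it gave for the seed coat parenchyma took 0.597% of embryo proper and 0.601% of suspensor reads. The part that material of another region had in the members' levels was not tested.

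The balance between the suspensor and the seed coat parenchyma, which the rule caps but does not set, divided the members into 3 patterns. In 27 members (12.9%, Clopper-Pearson interval 8.65 to 18.2%) the suspensor was 4-fold or more above the seed coat, on the CPM + 1 scale. In 14 members (6.67%, 3.69 to 10.9%) the seed coat was 4-fold or more above the suspensor, and the other 169 lay within 4-fold. With 5 CPM added instead of 1 the numbers were 17 and 5, and with DESeq2 size factors or upper-quartile scaling they were 39 and 10. Over all 1715 abundant gene models the shares were 11.4% and 6.12%. The members' shares were close to these, and their median log2 ratio of suspensor to seed coat, 0.16 (quartiles -0.61 and 1.04), lay beside 0.15 (-0.64 and 1.01) for all 1715. With TMM scaling the median was 0.66 for the members and 0.67 for all 1715, so the level of the balance depended on scaling.

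**Figure D4:**
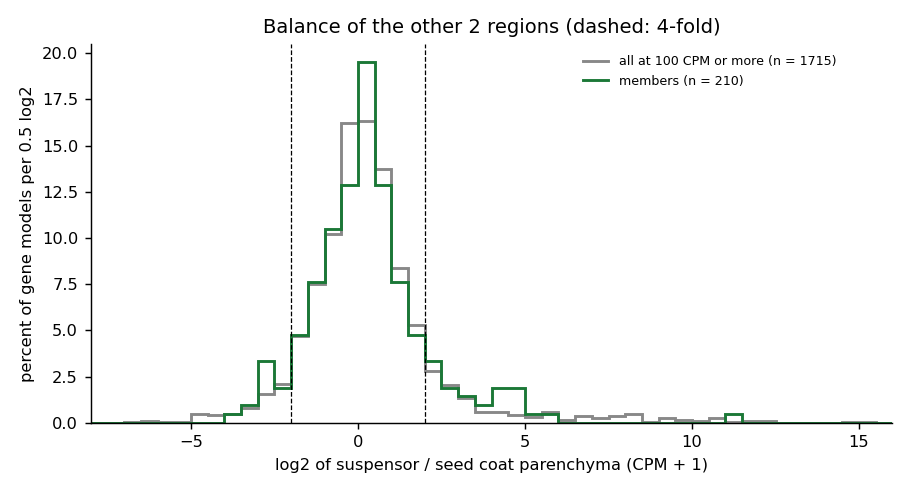
Distribution of the log2 ratio of suspensor to seed coat parenchyma (CPM + 1) in the 210 members and in all 1715 abundant gene models, as percent of gene models per 0.5 log2 step. The curves have medians of 0.16 and 0.15, and 27 members lie at or beyond the upper and 14 at or beyond the lower dashed 4-fold line.

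The 27 members that leaned to the suspensor had median levels of 215 CPM (embryo proper), 27.3 CPM (suspensor) and 1.09 CPM (seed coat). The order of the 3 regions in this group follows from how it was chosen, and 3 of the 27 were among the 20 most abundant members. The largest suspensor to seed coat differences were in Glyma19g42940, described above, Glyma20g19510 and Glyma07g37600. Glyma20g19510, on chromosome 20, had 270.1 CPM (embryo proper), 56.9 CPM (suspensor) and no seed coat read. Glyma07g37600, on chromosome 7, had 259.5 and 35.1 CPM, again with 0 seed coat reads. Their embryo proper levels were 1071 and 1029 times a seed coat level of 3 reads, with lower ends of the counting intervals at 870-fold and 836-fold. They were 4.75 (4.31 to 5.24) and 7.38 (6.55 to 8.35) times their suspensor levels.

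Of the 17 members with 0 seed coat reads, 7 reached 1 CPM in the suspensor library and 10 did not. The most abundant of the 17 was Glyma10g42920, on chromosome 10, with 473 CPM (embryo proper) and 27.1 CPM (suspensor). Its embryo proper level was 1874 times a seed coat level of 3 reads, and the lower end of its counting interval over the seed coat was 1524-fold.

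The 14 members that leaned to the seed coat had medians of 150.1 CPM (embryo proper), 1.49 CPM (suspensor) and 23.0 CPM (seed coat). Being 4-fold below the embryo proper in the seed coat and 4-fold lower again in the suspensor, all 14 are 16-fold or more above the suspensor by construction. Their suspensor levels lay between 0.359 and 17.6 CPM and their seed coat levels between 6.56 and 78.3 CPM. Glyma14g03900, on chromosome 14, had 181 CPM (embryo proper), 0.837 CPM (suspensor, 7 reads) and 27.6 CPM (seed coat). Its seed coat level was 33.0 times (15.8 to 82.6) its suspensor level.

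Glyma18g39760, on chromosome 18, had 144 CPM (embryo proper), 1.08 CPM (suspensor) and 21.02 CPM (seed coat), a seed coat to suspensor ratio of 19.5 (10.1 to 43.2). Glyma16g05490, on chromosome 16, had 122, 2.03 and 24.97 CPM, a ratio of 12.3 (7.55 to 21.4). The lower bounds of all these ratios were above 7. The most abundant of the 14 was Glyma10g29710, on chromosome 10, with 819 CPM (embryo proper), 17.6 CPM (suspensor) and 78.3 CPM (seed coat).

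Members near the thresholds did not stand apart from gene models just outside them. Just inside the minimum of 100 CPM were Glyma15g34870 (100.1 CPM), Glyma09g39940 (100.1 CPM) and Glyma01g02620 (100.3 CPM). Just outside were Glyma20g38850 (99.5 CPM), Glyma11g09900 (98.5 CPM) and Glyma20g34970 (98.2 CPM). Glyma11g09900 had 2 suspensor reads and 0 seed coat reads, a pattern like that of the most restricted members. In all, 21 gene models at 90 to 100 CPM met both folds, next to 23 members at 100 to 110 CPM.

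On the fold, the nearest members inside were Glyma07g39720, Glyma05g32420 and Glyma11g00360, at 4.002, 4.006 and 4.006 over the suspensor. The nearest outside were Glyma19g32350 (3.99), Glyma08g18760 (3.98) and Glyma07g02270 (3.955), also against the suspensor. Between 3.5 and 4-fold lay 54 gene models, and between 4 and 4.5-fold 32 members. The lower bounds of both counting intervals were 4 or more for 189 members, and for 21 members counting error alone could place a ratio below 4.

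By the chromosome number in the identifier, members were found on all 20 chromosomes, with 7 to 19 on each and a median of 10.5, and 0 on the unplaced scaffolds, which held 18 abundant gene models. As a share of abundant gene models, they made up between 7.14% (chromosome 6, 7 of 98) and 21.6% (chromosome 10, 19 of 88). The Clopper-Pearson interval for chromosome 10, 13.5 to 31.6%, did not reach the overall share of 12.3%, and it was the single chromosome of the 20 for which this was so. No adjustment was made for looking at 20 chromosomes.

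**Figure D5:**
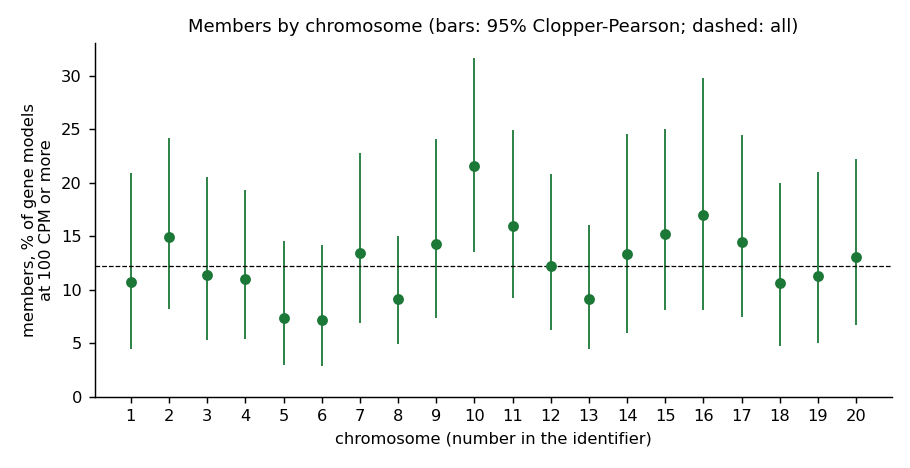
Members as percent of the abundant gene models, for each of the 20 chromosomes, with 95% Clopper-Pearson intervals and the share over all abundant gene models as a dashed line. Chromosome 10 is highest at 21.6% and chromosome 6 lowest at 7.14%.

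In identifier order, the 210 members among 65781 gene models on chromosomes formed 2 adjacent pairs. With up to 3 gene models allowed between members there were 3 pairs. The pair on chromosome 3 was Glyma03g28130, with 134 CPM (embryo proper), 4.78 CPM (suspensor) and 0.589 CPM (seed coat), and Glyma03g28140, at 131, 0.717 and 0 CPM. The pair on chromosome 17 was Glyma17g35090, at 228, 37.2 and 4.29 CPM, and Glyma17g35100, at 320.3, 22.2 and 4.96 CPM. In both pairs each member was higher in the suspensor than in the seed coat, as were 57.1% of all members. The rule itself puts the embryo proper first. The suspensor levels within the chromosome 3 pair differed by more than their counting intervals (3.42 to 6.51 against 0.263 to 1.56 CPM).

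The third pair, Glyma01g09290 and Glyma01g09310, had 1 gene model between them. The first had 114 CPM (embryo proper), 14.8 CPM (suspensor) and 5.63 CPM (seed coat), and the second at 408, 32.6 and 59.9 CPM. They differed in which of the other regions was higher. No stretch of 100 consecutive gene models held more than 3 members, and 73.0% of such stretches held 0. Whether the pairs and stretches differ from those of gene models placed at random was not tested.

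The 415 gene models that flanked a member directly, and were not members, were mostly low, with a median of 0.431 CPM in the embryo proper, and 131 of them (31.6%, against 40.9% of all gene models on chromosomes) had no read in any library. Of the 415, 14 had an embryo proper level 4-fold or more above both other regions (3.37%, Clopper-Pearson interval 1.86 to 5.60%), whatever their level. Over all 65781 gene models on chromosomes the share was 2.21%. Among those at 1 CPM or more in some library the shares were 14 of 241 (5.81%, 3.21 to 9.55%) and 4.53%. The shares over all gene models include the 210 members and Glyma02g13210, which pass by the rule, while the flanking gene models leave members out. This raises the shares over all gene models, so they cannot be set directly against those of the flanking gene models. The highest of the 14 were Glyma04g36140, at 46.5 CPM beside Glyma04g36150, Glyma03g37430, at 44.2 CPM beside Glyma03g37420, and Glyma11g35090, at 40.2 CPM beside Glyma11g35080. Glyma03g28120, at 5.08 CPM, lay directly before the chromosome 3 pair. Whether a neighbour's reads came from the member itself was not tested, since neither the use of strand nor the treatment of overlapping gene models is known here.

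The same rule applied to the other regions gave larger sets, of 298 (suspensor) and 487 (seed coat parenchyma) gene models. They were 19.2% and 27.7% of the gene models with at least 100 CPM in their own library, against 12.2% for the embryo proper. The suspensor set took 23.1% of suspensor reads and the seed coat set 18.7% of seed coat reads, against the 7.97% of the embryo proper members. The last share leaves out Glyma02g13210, which alone held 3.47% of embryo proper reads, whereas the other sets kept their most abundant gene model. Without that gene model the suspensor set took 18.6% and the seed coat set 17.5% of reads. The fold over the higher of the other regions had a median of 8.83 in the suspensor set and 20.3 in the seed coat set, against 6.27. At 100-fold or more over both other regions were 15 gene models of the suspensor set (5.03%) and 109 of the seed coat set (22.4%), against 4 members (1.90%). The embryo proper set was the smallest of the 3 under each of the 4 other scalings tried, while the order of the other sets turned under all of these but the totals without the most abundant gene models.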

How the data were processed

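Each library has a table deposited by the authors, with the raw count of mapped reads per gene model (per the file headers). The submitters' processing notes name Bowtie. Not given in the sources used here are its version, the build, the annotation, the treatment of reads with several hits and whether strand was used, so counts of near-identical gene copies and of overlapping gene models are uncertain. CPM was taken on the sum of each table, and members were selected as described. Genes to name were the most abundant members, those with the largest folds, those with no reads elsewhere, those nearest the thresholds, those with the most unequal other regions, and members next to each other. Members, lists and rules were chosen with earlier results of these data known. The planned lists of functions and markers rest on product names and could not be applied. With 1 library per region no test across genes was made. Count intervals are exact Poisson, ratios of 2 libraries and shares of gene models exact Clopper-Pearson, and shares of reads Wilson, all at 95%, in SciPy 1.17.1 with Python 3.11.15, NumPy 2.4.6 and pandas 2.3.3. Other scalings came from edgeR 4.0.16 and DESeq2 1.42.0 in R 4.3.3, and plots from matplotlib 3.10.9. The code for the rule was run on simulated counts with planted folds and counting error only. That check shows that the threshold is applied, and says nothing of variation between plants, dissections or amplifications.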

Additional observations from a re-analysis of the deposited data

How the results depend on the processing

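No paired analysis was possible because there is only 1 library per region. The number of members was 414 with a minimum of 50 CPM, 94 at 200 CPM, 639 at 2-fold and 75 at 8-fold, all of which change what is counted. Every other setting (4 scalings, 2 added constants, the interval bound, thinning to 8365831 reads, keeping Glyma02g13210) gave between 182 and 245. A scaling changed which gene models belonged: 167 of the 210 members were kept by all 4, and 10 of the 14 at 1000 CPM or more. Glyma19g42940, Glyma18g25820 and Glyma05g03150 were lost under all 4. The gene models that each scaling selected took 6.52% of embryo proper reads with TMM, 5.82% with DESeq2 size factors and 7.16% with upper-quartile scaling. With totals without the 50 most abundant gene models of each library the share was 6.16%. These sets shared 182, 167, 188 and 187 gene models with the 210 members, in that order. The members themselves took 6.74% without Glyma19g42940. That setting was chosen after seeing the data, as were the counts by abundance and the stretches of 100 gene models. The median log2 ratio of suspensor to seed coat in the members went from 0.16 to 0.66 (TMM), 0.73 (DESeq2) and 0.70 (upper quartile), because these scalings raise suspensor levels and lower seed coat levels. Over all gene models at 100 CPM or more it was 0.67, 0.74 and 0.71, and with TMM their median log2 ratio of embryo proper to suspensor was 0.76 instead of 1.01 and to seed coat 1.53 instead of 1.25. With 5 CPM added, 17 members leaned to the suspensor and 5 to the seed coat. At 200 CPM or more, 165 gene models were 4-fold above the suspensor (23.3%) and 211 above the seed coat (29.8%), because fewer were compared. The suspensor set numbered 472 with DESeq2 size factors and the seed coat set 317 with upper-quartile scaling. At 2-fold, 36 flanking gene models (8.67%) were higher in the embryo proper than in both others. The share of all gene models was 6.69%, which includes the members and is raised by them. Depth limits the members with under 10 reads elsewhere, namely 18 (suspensor) and 25 (seed coat).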
